A study of Mus musculus with 240 samples.

Results

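GABA-A receptors are chloride channels built of 5 subunits, and most of them hold α, β and γ subunits. Genes of the β, γ and δ subunits are described here: Gabrb1 (ENSMUSG00000029212) and Gabrb2 (ENSMUSG00000007653) encode β subunits, Gabrg1 (ENSMUSG00000001260) and Gabrg3 (ENSMUSG00000055026) encode γ subunits, and Gabrd (ENSMUSG00000029054) encodes the δ subunit. They were found by gene name in the count table and matched to the log2 table by gene identifier, and are 5 of the 14785 genes tested (of 55414 in the count table). All 5 passed the filter on low values. The study looked for differences in expression related to ethanol preference. RNA was measured in 3 brain regions: the prelimbic cortex (PrL), the core of the nucleus accumbens (NAcc) and the central amygdala (CeA). The mice were naive, 8 weeks old by the series' design text (the study's methods give an older age) and of the 8 inbred founder strains of the Collaborative Cross: C57BL/6J (B6), NZO/HILtJ (NZO), A/J (AJ), 129S1/SvImJ (S129), NOD/LtJ (NOD), WSB/EiJ (WSB), PWK/PhJ (PWK) and CAST/EiJ (CAST). The study's paper names the NOD strain NOD/ShiLtJ. Each strain gave 3 females and 3 males, with all 3 regions of each mouse, so that 48 mice gave 144 libraries in 3 trays of 48. B6 and PWK were the high preference strains, and the mean of the 6 other strains (Low_Average) was the comparator. An inbred strain is 1 genotype, so the mice of a strain are repeats of that genotype. The regions were punched from frozen brain and hold many cell types. In such tissue, fewer cells of a type and less RNA per cell cannot be told apart.

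The subunit mix sets where a GABA-A receptor sits and how it responds. Receptors with a γ subunit are mostly synaptic, and the γ subunit forms the benzodiazepine site together with an α subunit. Receptors with δ in place of γ lie outside the synapse, respond to low ambient GABA and carry tonic inhibition. They have been studied as a possible target of ethanol. The β subunits form the GABA site with α and are needed for assembly. Most subunit genes lie in clusters. By RefSeq, Gabrg1 and Gabrb1 lie with Gabra2 and Gabra4 on mouse chromosome 5, Gabrb2 lies on chromosome 11, Gabrg3 lies beside Gabra5 on chromosome 7, and Gabrd lies alone on chromosome 4.

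The 250 bases before the start of the Gabrg1 and Gabrb2 transcripts are shown because these were the only members that differed between 1 strain and all 7 others. They are of the reference genome, which is that of B6, from RefSeq on build GRCm38.p6, and CG dinucleotides are in capitals. The Gabrg1 window lies at chr5:70842618-70842867 on the minus strand and the Gabrb2 window at chr11:42420190-42420439 on the plus strand.
Gabrg1: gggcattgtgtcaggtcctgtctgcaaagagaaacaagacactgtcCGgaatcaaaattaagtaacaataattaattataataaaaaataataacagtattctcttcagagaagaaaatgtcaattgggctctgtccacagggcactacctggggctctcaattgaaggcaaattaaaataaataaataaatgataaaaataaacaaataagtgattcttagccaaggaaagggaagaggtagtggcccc
Gabrb2: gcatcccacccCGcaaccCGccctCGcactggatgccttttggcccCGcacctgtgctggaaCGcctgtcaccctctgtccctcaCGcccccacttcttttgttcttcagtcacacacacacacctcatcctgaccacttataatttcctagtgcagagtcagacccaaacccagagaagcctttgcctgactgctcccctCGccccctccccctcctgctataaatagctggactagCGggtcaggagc
The Gabrg1 window is AT-rich (35.6% GC) with 1 CG, and 81.2% of 32851 RefSeq windows of the same length held more. The Gabrb2 window is the most upstream of 3 in RefSeq. It holds 8 CG (median of all windows 6) and a TATAAA 30 bases before the start. Letters of TATAAA were found in 12.4% of all windows on either strand, and those of GGGCGG in 32.7%. GGGCGG was found in 1 place in the Gabrb2 window and not in that of Gabrg1. The other 2 Gabrb2 windows, not printed, hold 8 and 4 CG and have neither TATAAA nor GGGCGG. RefSeq windows were at hand for 4 of the 5 members. How the 7 other strains differ from the reference in these windows was not analysed here.

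The total count per library was 20317541 to 33951616 in the CeA (48 libraries), 18240695 to 32331446 in the NAcc (47 libraries) and 14942820 to 30662185 in the PrL (48 libraries). The fewest reads of a member in any library were 2559 for Gabrb1, 1709 for Gabrb2, 227 for Gabrg1, 661 for Gabrg3 and 220 for Gabrd. Between both runs of a library, which were made for 96 libraries, the SD of the log2 ratio was 0.04 for Gabrb1 and 0.09 for Gabrg1, the smallest and largest of the 5. Punches were checked against markers of their tissue. The summed level of 8 genes of striatal projection neurons was 4375 CPM (counts scaled to a common library size) in the median NAcc library, 1306 in the CeA and 311 in the PrL, and no marker of the list was at 0 in any region. The pallial glutamatergic sum was 2852 in the PrL, 1255 in the CeA and 61.9 in the NAcc. The sum of 7 central amygdala genes did not set CeA punches above those of the NAcc. Its median was 615.7 CPM for CeA libraries, 706.8 for NAcc libraries and 296.9 for PrL libraries. Against the NAcc, 2 of these 7 genes were called higher and 3 lower in CeA libraries. In 11 libraries the striatal sum lay on the side of another region (7 of the CeA, of which 4 were AJ, 3 of the NAcc and 1 of the PrL). These libraries stand apart, and results that changed without them are given both ways.

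Each region had its own mix of the 5 subunit genes. Per kilobase of exon, which allows levels of different genes to be compared, Gabrb2 led in the PrL with 34.4 ± 6.08 CPM per kb (SD, n = 48) and in the CeA with 27.8 ± 3.23 (n = 48), whereas Gabrd led in the NAcc with 34.1 ± 16.5 (n = 47). The Gabrb2 level was 28.3 ± 6.44 CPM per kb in the NAcc. Gabrb1 was at 16.6 to 20.0 in the 3 regions on the same scale. The γ subunit genes of this set were the lowest. Gabrg3 was at 4.60 to 6.75 CPM per kb, and Gabrg1 was at 9.93 in the CeA and 10.7 in the NAcc but 3.17 ± 0.83 in the PrL. Gabrg1 thus ranked 4 of the 5 in the CeA and NAcc and 5 in the PrL.

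**Figure D1:**
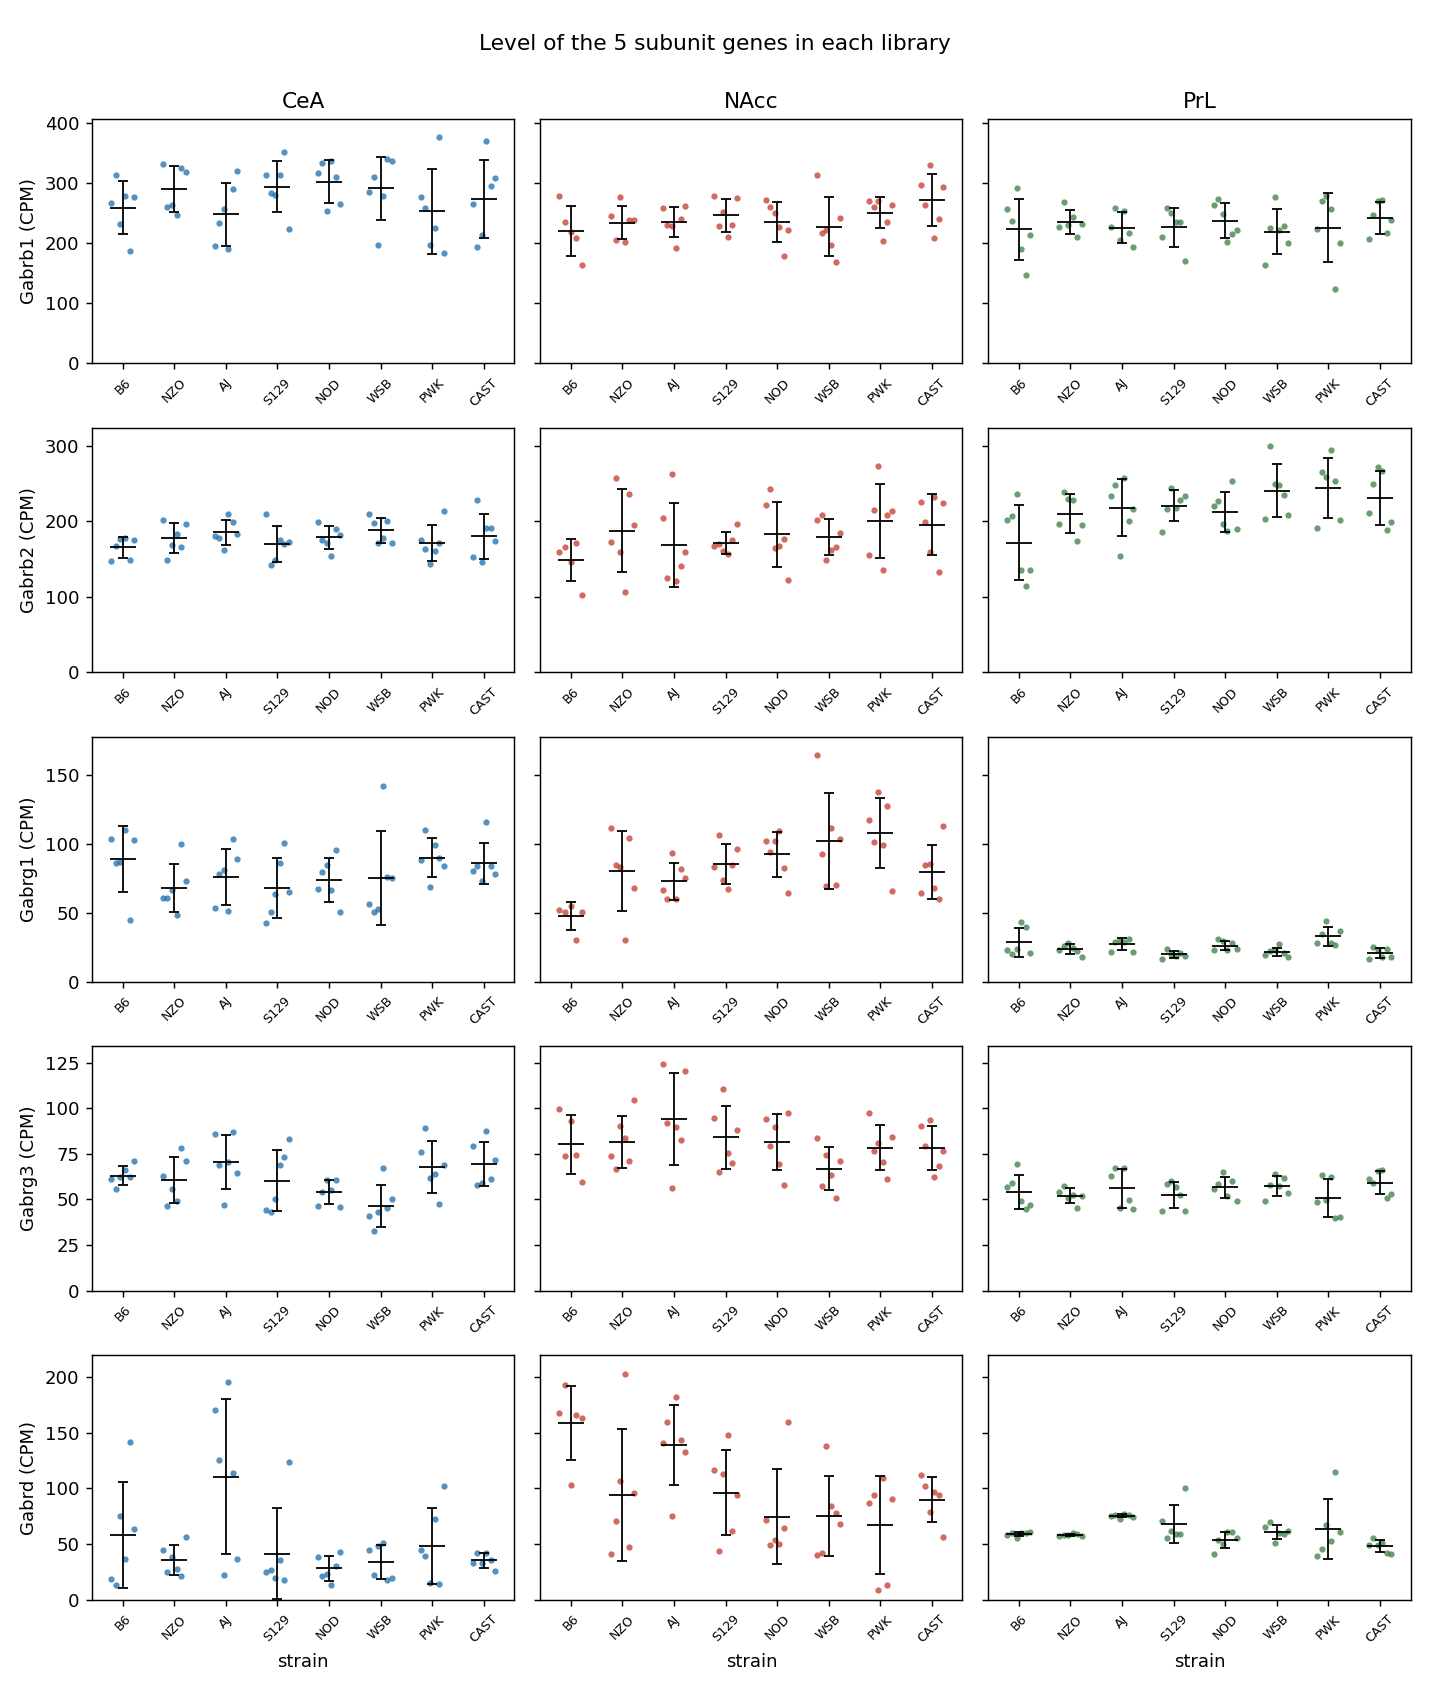
Level of each subunit gene (rows, CPM) in every library of the CeA, NAcc and PrL (columns) by strain; points are libraries, and the dash and bars are the mean and SD of 5 or 6 mice. Gabrg1 lies lower in the PrL than in the other regions, its B6 libraries lie low in the NAcc, and Gabrd spreads widely in the CeA and NAcc.

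The largest difference between regions was that of Gabrg1. Its level was 25.0 ± 6.51 CPM (SD, n = 48) in the PrL, 78.1 ± 21.3 (n = 48) in the CeA and 84.0 ± 26.6 (n = 47) in the NAcc. Averaged over strains, the PrL was 3.24-fold lower than the NAcc (log2 difference -1.69 ± 0.08 SE, adjusted p = 7.15e-42, limma), and 46 of 47 mice were lower. The CeA was higher than the PrL in 48 of 48 mice (log2 difference 1.63 ± 0.08, adjusted p = 1.23e-40), and did not pass the test against the NAcc (-0.06 ± 0.07). The difference between PrL and NAcc ran from -2.19 in WSB to -0.73 in B6.

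Gabrd was highest in the NAcc, at 98.1 ± 47.5 CPM (n = 47), against 60.9 ± 13.6 in the PrL and 49.0 ± 41.8 in the CeA (n = 48 each). The CeA was 2.26-fold lower than the NAcc (log2 difference -1.18 ± 0.15, adjusted p = 3.00e-12) and 39 of 47 mice were lower. The difference was -0.52 ± 0.14 for PrL against NAcc (adjusted p = 0.00065) and -0.66 ± 0.15 for CeA against PrL (adjusted p = 3.53e-05). Without the 11 libraries these differences were -1.65, -0.70 and -0.95, and all were called. The 11 were chosen by the striatal sum, with which Gabrd rises in the CeA and NAcc (given below). Leaving them out by that rule widens these differences, so the values are no independent check. Gabrd is the member whose level spread most within a region. From the lowest library to the highest, it was 13.2 to 195.3 CPM in the CeA and 9.29 to 203.0 in the NAcc, and 39.8 to 114.6 in the PrL.

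Gabrg3 was also highest in the NAcc, followed by the CeA and the PrL, with 80.6 ± 16.4, 61.5 ± 13.7 and 54.9 ± 7.65 CPM. The log2 difference was -0.54 ± 0.05 for PrL against NAcc (43 of 47 mice lower, adjusted p = 1.47e-19) and -0.39 ± 0.05 for CeA against NAcc (39 of 47 mice lower, adjusted p = 7.02e-13). The smaller difference between CeA and PrL (0.14 ± 0.05, adjusted p = 0.00508) was 0.09 without the 11 libraries (adjusted p = 0.101, range over alternatives 0.00208 to 0.101).

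The β subunit genes differed less between regions, and in opposite directions. Gabrb1 was highest in the CeA, at 276.9 ± 51.5 CPM, against 240.8 ± 35.8 in the NAcc and 229.5 ± 35.0 in the PrL. The log2 difference was 0.26 ± 0.04 for CeA against PrL (adjusted p = 7.37e-08, 36 of 48 mice higher) and 0.20 ± 0.04 for CeA against NAcc (adjusted p = 3.62e-05). Gabrb2 was highest in the PrL, at 218.8 ± 38.7 CPM, against 180.0 ± 40.9 in the NAcc and 177.1 ± 20.5 in the CeA. The log2 difference was 0.30 ± 0.05 for PrL against NAcc (adjusted p = 2.84e-08, 35 of 47 mice higher), and its mean was above 0 in all 8 strains. In all, 4 members were called between PrL and NAcc, 3 between CeA and NAcc and 5 between CeA and PrL. Of all genes tested, 82.4%, 69.1% and 73.9% were called, so the counts are close to that background. The median absolute log2 difference between PrL and NAcc was 0.52 over the 5 members and 0.26 over all genes, and it was 0.20 against 0.14 for CeA and NAcc, and 0.29 against 0.17 for CeA and PrL.

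**Figure D2:**
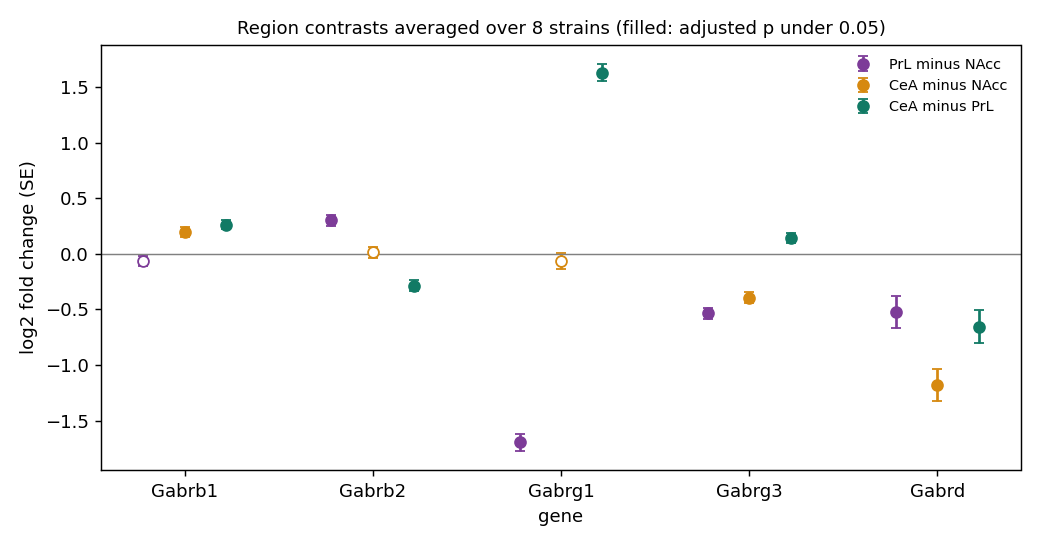
Log2 fold change (y axis) of each gene between regions, averaged over 8 strains; points are estimates, bars are ± 1 SE, and filled points had an adjusted p under 0.05. Gabrg1 reaches -1.69 for PrL minus NAcc and 1.63 for CeA minus PrL, and no other member goes beyond the -1.18 of Gabrd.

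Strains were compared within each region, in 28 pairwise contrasts of each gene. Of the 140 contrasts of the 5 members, 23 were called in the PrL (16.4%), 16 in the NAcc (11.4%) and 9 in the CeA (6.43%). Over all genes, 33.1% of contrasts were called in the PrL, 26% in the NAcc and 28.9% in the CeA (all contrasts of 14785 genes). By the test for any strain difference, 3 members were called in the PrL (Gabrb2, Gabrg1 and Gabrd), 3 in the NAcc (Gabrb1, Gabrg1 and Gabrd) and 1 in the CeA (Gabrg3), against 84.1%, 76% and 80.8% of all genes. Ranked by mean level, neighbouring strains differed in only 2 pairs over all members and regions: AJ and B6 for Gabrg1 in the NAcc, and NZO and B6 for Gabrb2 in the PrL.

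Gabrg1 in the NAcc was lower in B6 than in each of the 7 other strains. Gabrg1 was at 29.8, 50.2, 50.3, 51.8 and 54.7 CPM in the 5 B6 libraries, of mice 33, 17, 41, 9 and 25. The 42 libraries of the other strains ran from 30.3 over a median of 84.6 to 164.1 CPM. Only 1 of these 42, an NZO library at 30.3, lay under the highest B6 library. The mean of B6 was 47.3 ± 9.97 CPM (SD, n = 5), and the means of the others ran from 72.7 ± 13.2 in AJ to 107.9 ± 25.4 in PWK (n = 6 each). On the log2 scale the difference of B6 ran from -0.66 ± 0.24 (SE) against AJ (adjusted p = 0.0355) to -1.21 ± 0.24 against PWK (adjusted p = 0.000121), with a mean of -0.90. Genes lower in B6 than in all 7 strains were 0.96% of those tested in the NAcc. Against Low_Average the difference was -0.69, -0.56 and -1.17 within the 3 trays, with 2, 1 and 2 B6 libraries. The call in all 7 contrasts was lost without mouse 33, whose library was the lowest (mean -0.74, 4 of 7 called, largest adjusted p = 0.143), and without mouse 17 (mean -0.91, 6 of 7 called).

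Libraries of the NAcc with more striatal marker RNA had less Gabrg1 and more Gabrd. The striatal sum of the B6 libraries was 4375 to 9692 CPM, and their median of 6916 was the highest of the 8 strains. Over the 47 NAcc libraries, Gabrg1 and the striatal sum were related on the log2 scale with Pearson's r = -0.76 and Spearman's rho = -0.82 (permutation test, p = 1e-05 for both, the smallest that 100000 permutations can give; adjusted p = 0.000127 and 0.000138 over 165 relations). The r was -0.75 without the 2 libraries farthest from the median, -0.79, -0.77 and -0.85 within the trays, and -0.73 within strains. Gabrg1 was also related to the astrocyte sum (r = 0.66, rho = 0.73, permutation test, p = 1e-05 for both, adjusted p = 0.000127 and 0.000138). This r was 0.61 without the 2 farthest libraries and 0.75, 0.85 and 0.47 within the trays. The relation to the sum of 5 markers of diencephalic neurons was r = 0.71 and rho = 0.78 (permutation test, p = 1e-05 for both, adjusted p = 0.000127 and 0.000138), with r = 0.76 without the 2 farthest libraries and 0.83, 0.69 and 0.76 within the trays. The median diencephalic sum of B6 in the NAcc, 86.8 CPM, was the lowest of the 8 strains, and its part in the low Gabrg1 was not tested. The pallial sum of the B6 libraries there was 36.1 to 602.4 CPM, the highest being that of mouse 33. The B6 median of 173.1 was the highest of the 8 strains (48.9 to 81.0 in the others). The highest single library was of PWK, at 1444 CPM. Against Low_Average, 3 of 6 pallial genes were higher in B6 and 1 was lower. The part of pallial content in the low Gabrg1 was not tested. With the striatal sum as a covariate, the mean difference of B6 was -0.56, 6 of 7 contrasts were called, and the largest adjusted p was 0.207. With the astrocyte sum it was -0.67 with 7 of 7 called, and with the oligodendrocyte sum -1.12 with 7 of 7. Over these and the other alternatives, the largest adjusted p of the 7 contrasts ran from 0.00918 to 0.207. CAST had striatal sums of 3224 to 9034 CPM (median 6280) with Gabrg1 at 59.8 to 112.8 CPM, above every B6 library. AJ went the other way: its median striatal sum was also high, at 5511 CPM, and its Gabrg1 mean of 72.7 CPM was the lowest of the 7 other strains. The relation of strain means to the striatal sum was not tested.

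**Figure D3:**
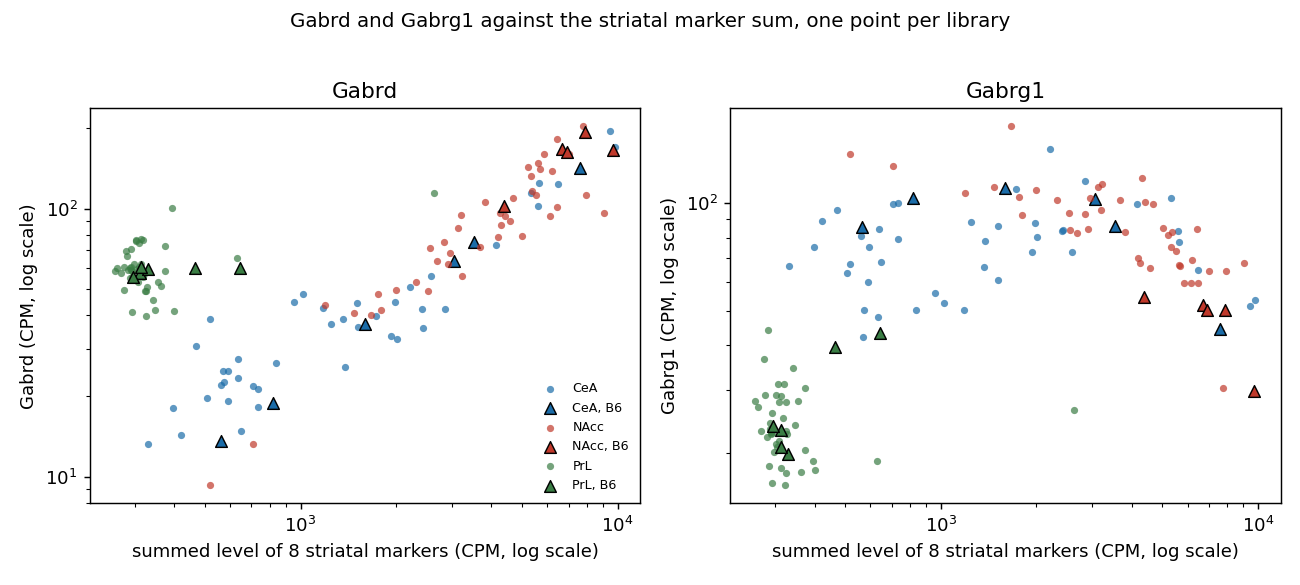
Level of Gabrd (left) and Gabrg1 (right) against the summed level of 8 striatal markers, both in CPM on log axes; each point is a library, coloured by region, and triangles are B6. Gabrd rises with the sum in the NAcc (r = 0.94) and CeA (r = 0.93), Gabrg1 falls with it in the NAcc (r = -0.76), and the B6 triangles of the NAcc lie at 29.8 to 54.7 CPM of Gabrg1.

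In the limma fit, Gabrg1 was not called lower in B6 in the other regions, and the difference between regions passed its own test. In the CeA, Gabrg1 was at 44.5, 85.7, 86.5, 102.7, 103.2 and 110.0 CPM in B6, which is within the 42.2 to 141.4 of the other strains. The library at 44.5 was of mouse 33, also the lowest of B6 in the NAcc. Its striatal sum of 7598 CPM was the highest of B6 in the CeA, and it is the B6 library among the 11. Contrasts of Gabrg1 called in the CeA were 0 by limma, by edgeR and by DESeq2, 1 without the 11 libraries and 3 with sample quality weights. In the PrL it was at 19.8, 20.7, 23.1, 23.8, 39.5 and 43.4 CPM in B6, against 16.2 to 44.2 in the others. The effect of B6 against the mean of the 7 others was higher in the PrL than in the NAcc by 1.04 ± 0.24 on the log2 scale (adjusted p = 0.00544), and higher in the CeA than in the NAcc by 1.10 ± 0.22 (adjusted p = 0.00129). Over all genes, 1.87% of such contrasts were called. Gabrg1 was the only member called by the interaction test (adjusted p = 0.00182, against 34.6% of all genes). Gabrg3 had an adjusted p of 0.0710 there, and of the 24 contrasts 1 was called: the effect of WSB was lower in the CeA than in the PrL by 0.53 on the log2 scale (-0.53 ± 0.15, adjusted p = 0.0287). It was -0.47 without the 11 libraries (adjusted p = 0.0502, range over alternatives 0.0194 to 0.0691). With mouse as a replicate block, Gabrg3 was called by the interaction test as well (adjusted p = 0.0460, range over alternatives 0.0460 to 0.220).

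In the PrL, the mean of Gabrg1 was highest in PWK, with 4 of its 7 contrasts called. PWK against B6, the next highest mean, was not called (adjusted p = 0.0887, limma). The lowest means were those of S129, CAST and WSB, with 4, 4 and 2 of 7 called. Of the 28 contrasts 11 were called, the most of any member and region. The count was 6 without the tray term and 17 with the astrocyte sum as a covariate. In PWK it was at 26.4, 27.6, 28.0, 34.6, 36.6 and 44.2 CPM (mean 32.9 ± 6.91, n = 6). No library of S129 (16.5 to 23.4, mean 19.7 ± 2.34) or CAST (16.2 to 25.0, mean 20.6 ± 3.78) reached the lowest of PWK. The largest difference was that of S129 against PWK (-0.72 ± 0.13, adjusted p = 3.61e-05), and the smallest called was that of AJ against WSB (0.33 ± 0.13, adjusted p = 0.0486). The 2 high B6 libraries, of mice 25 and 33, also had the highest oligodendrocyte and astrocyte sums of B6 in the PrL (3845 and 5280 CPM, and 1802 and 1862 CPM) and its lowest pallial sums (1831 and 2304 CPM). Over the 48 PrL libraries, Gabrg1 was related to the astrocyte sum with r = 0.61 and rho = 0.51 (permutation test, p = 1e-05 and 0.00025, adjusted p = 0.000127 and 0.00186), and r was 0.47 without the 2 farthest libraries and 0.34, 0.82 and 0.53 within the trays.

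Gabrb2 in the PrL was lower in B6 than in each of the 7 other strains, with a wide spread among the B6 mice. Gabrb2 was at 114.0, 135.5, 135.8, 202.3, 206.8 and 236.6 CPM in B6, of mice 33, 25, 41, 1, 9 and 17 (mean 171.8 ± 49.6, n = 6). The 42 other libraries ran from 153.9 over a median of 228.1 to 299.9 CPM. So 3 of the 6 B6 libraries lay under every library of the other strains, and the other 3 lay within their range. The log2 difference ran from -0.33 ± 0.13 against NZO (adjusted p = 0.0408) to -0.54 ± 0.13 against PWK (adjusted p = 0.000842), with a mean of -0.43. Genes lower in B6 than in all 7 strains were 1.63% of those tested in the PrL. Against Low_Average the difference was -0.44, -0.42 and -0.38 within the 3 trays. Not all 7 contrasts were called by edgeR (-0.39, 5 of 7, largest adjusted p = 0.0832), DESeq2 (-0.39, 5 of 7, 0.0732), with sample quality weights (-0.23, 3 of 7, 0.415), with the oligodendrocyte sum as a covariate (-0.34, 3 of 7, 0.237), or without mouse 25, 33 or 41 (-0.34, -0.34 and -0.36, 4 of 7 each). Over all alternatives the largest adjusted p of the 7 ran from 0.00632 to 0.415. Of these 3 mice, 25 and 33 are those with high glial sums named above, and mouse 41 had sums (2620 CPM for oligodendrocytes and 1157 for astrocytes) within the range of the other 3 B6 libraries. The precursor sum (markers of oligodendrocyte precursors) was 196.3, 173.9 and 165.7 CPM in mice 33, 25 and 41, above the 141.8 to 152.7 of those 3. Over the 48 PrL libraries, Gabrb2 was related to the sum of oligodendrocyte precursor markers with r = -0.54 and rho = -0.45 (permutation test, p = 8e-05 and 0.00135, adjusted p = 0.00066 and 0.00655), and r was -0.39 without the 2 farthest libraries and -0.55, -0.63 and -0.72 within the trays. Neuronal markers were lower in B6 too: against Low_Average in the PrL, 5 of 6 pallial glutamatergic genes were lower (median log2 difference -0.51) and 4 of 6 cortical interneuron genes (-0.42), and 0 were higher in either list. Gabrb2 was related to the pallial sum with r = 0.50 and rho = 0.31 (permutation test, p = 0.00068 and 0.0299, adjusted p = 0.0033 and 0.0783), and r was 0.42 without the 2 farthest libraries and 0.40, 0.46 and 0.72 within the trays. The part of precursor and neuronal content in the low Gabrb2 was not tested.

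Gabrb2 had no call among strains in the CeA and NAcc in the limma fit. By limma, 0 of 28 contrasts were called in the CeA (0 at an unadjusted p under 0.05, and 0 by edgeR and by DESeq2) and 0 in the NAcc (2 at an unadjusted p under 0.05, 1 by edgeR and 2 by DESeq2). With sample quality weights 1 was called in the CeA and 5 in the NAcc, and with the oligodendrocyte sum as a covariate 10 were called in the NAcc. In the CeA the strain means ran from 165.6 ± 14.0 CPM in B6 to 188.1 ± 16.6 in WSB. In the NAcc they ran from 149.2 ± 27.8 in B6 to 200.1 ± 49.2 in PWK, so B6 had the lowest mean in all 3 regions.

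Gabrb1 had the fewest called contrasts of the 5 members (4 in all, in the NAcc). No contrast was called in the CeA or the PrL (1 and 0 at an unadjusted p under 0.05, and 0 by edgeR and by DESeq2 in both). In the PrL the strain means spanned only 219.5 ± 37.0 CPM in WSB to 241.8 ± 26.8 in CAST. In the NAcc 4 contrasts were called. Gabrb1 was at 163.5, 208.4, 218.5, 235.2 and 277.9 CPM in B6 and at 208.5 to 329.7 in CAST, with much overlap. The largest difference was B6 against CAST (-0.36 ± 0.09, adjusted p = 0.00147) and the smallest called was B6 against S129 (-0.22 ± 0.09, adjusted p = 0.0497). In all 8 strains the lowest library was of tray 2, and without tray as a term of the model no contrast was called. The count was 7 with sample quality weights and with both runs summed, and 2 with no filter on low counts and without B6 mouse 33 or 41. Sample quality weights also gave 1 call in the CeA.

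Gabrg3 differed among strains mainly through WSB. In the CeA it was at 32.9, 41.1, 43.0, 45.6, 50.1 and 67.1 CPM in WSB (mean 46.6 ± 11.5, n = 6), and 2 of these lay under all 42 other libraries, which ran from 43.0 over a median of 62.2 to 89.0. WSB was lower than AJ (-0.60 ± 0.16, adjusted p = 0.00294), CAST (-0.59), PWK (-0.54) and B6 (-0.46 ± 0.16, adjusted p = 0.0232). In all, 2 contrasts were called in the CeA with the striatal sum as a covariate, 3 without the 11 libraries and 11 with sample quality weights. In the NAcc the only call was AJ above WSB (0.47 ± 0.13, adjusted p = 0.00605), at 94.1 ± 25.2 against 66.8 ± 11.8 CPM. Calls there numbered 2 by edgeR, by DESeq2 and without the 11 libraries, 5 with the astrocyte sum and 13 with the oligodendrocyte sum as a covariate, and 12 with sample quality weights. In the PrL no contrast was called (1 at an unadjusted p under 0.05, 0 by edgeR and by DESeq2, 2 with quality weights and 2 with the astrocyte covariate), and WSB, at 57.3 ± 5.28 CPM, was second to CAST among the strain means.

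The level of Gabrd in CeA and NAcc libraries rose with their striatal sum. Over the 47 NAcc libraries, Gabrd and the striatal sum were related on the log2 scale with r = 0.94 and rho = 0.91 (permutation test, p = 1e-05 for both, adjusted p = 0.000127 and 0.000138 over 165 relations), and r was 0.90 without the 2 farthest libraries, 0.95, 0.93 and 0.93 within the trays and 0.97 within strains. In the 48 CeA libraries r was 0.93 and rho 0.86 (permutation test, p = 1e-05 for both, same adjusted values), and r was 0.91 without the 2 farthest, and 0.92, 0.92 and 0.93 within the trays. In the PrL, r was 0.42 (rho = -0.03, permutation test, p = 0.0112 and 0.843, adjusted p = 0.033 and 0.875) and rested on 2 libraries, without which it was 0.02.

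In the CeA, Gabrd was called in 5 contrasts, all with AJ higher. It was at 21.9, 37.0, 114.1, 125.1, 170.1 and 195.3 CPM in AJ (mean 110.6 ± 69.6, n = 6), and the strain medians of the others were 25.7 to 50.4. The 4 high AJ libraries were those with striatal sums of 5317 to 9830 CPM, like the NAcc, and the 2 low ones had sums of 561 and 1246. Without the 11 libraries no contrast of Gabrd was called in the CeA, and with the striatal sum as a covariate 12 were. In the NAcc, 4 contrasts were called, 3 of B6 and 1 of AJ against PWK, and the largest was B6 against PWK (1.76 ± 0.46) and the smallest B6 against WSB (1.23 ± 0.46). Gabrd was at 102.7, 163.2, 166.3, 167.5 and 192.7 CPM in B6 (mean 158.5 ± 33.3, n = 5). PWK had 4 libraries at 86.8 to 109.6 CPM and 2, of mice 24 and 40, at 9.29 and 13.2. The striatal sums of these 2 were 519 and 709 CPM, against 4296 to 4684 in the other 4. With the striatal sum as a covariate, 11 contrasts of Gabrd were called in the NAcc, and 2 without B6 mouse 9, 17, 33 or 41. The count was 5 without the 11 libraries, 13 with the oligodendrocyte and 2 with the astrocyte covariate, 11 with sample quality weights, and 0 with the library that the authors left out.

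In the PrL, where the striatal sum was low, AJ was higher in Gabrd with little spread. It was at 72.8, 74.8, 75.6, 76.3, 76.5 and 77.1 CPM in AJ (mean 75.5 ± 1.53, n = 6), and only 2 of the 42 other libraries lay above the lowest of these, 1 of S129 at 100.7 and 1 of PWK at 114.6. The PWK library had a striatal sum of 2636 CPM, the highest of the PrL, and is the PrL library among the 11. The levels of B6 (55.5 to 60.8) and NZO (57.6 to 60.2) were as tight. AJ was higher than CAST (0.65 ± 0.14, adjusted p = 0.000227), NOD (0.51 ± 0.14, adjusted p = 0.00376), NZO (0.37) and B6 (0.36 ± 0.14, adjusted p = 0.0409), and S129 was higher than CAST (0.47). Without that PWK library, 12 contrasts of Gabrd were called in place of 5, as with sample quality weights. The count was 11 with the striatal sum as a covariate and 3 with no filter on low counts.

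**Figure D4:**
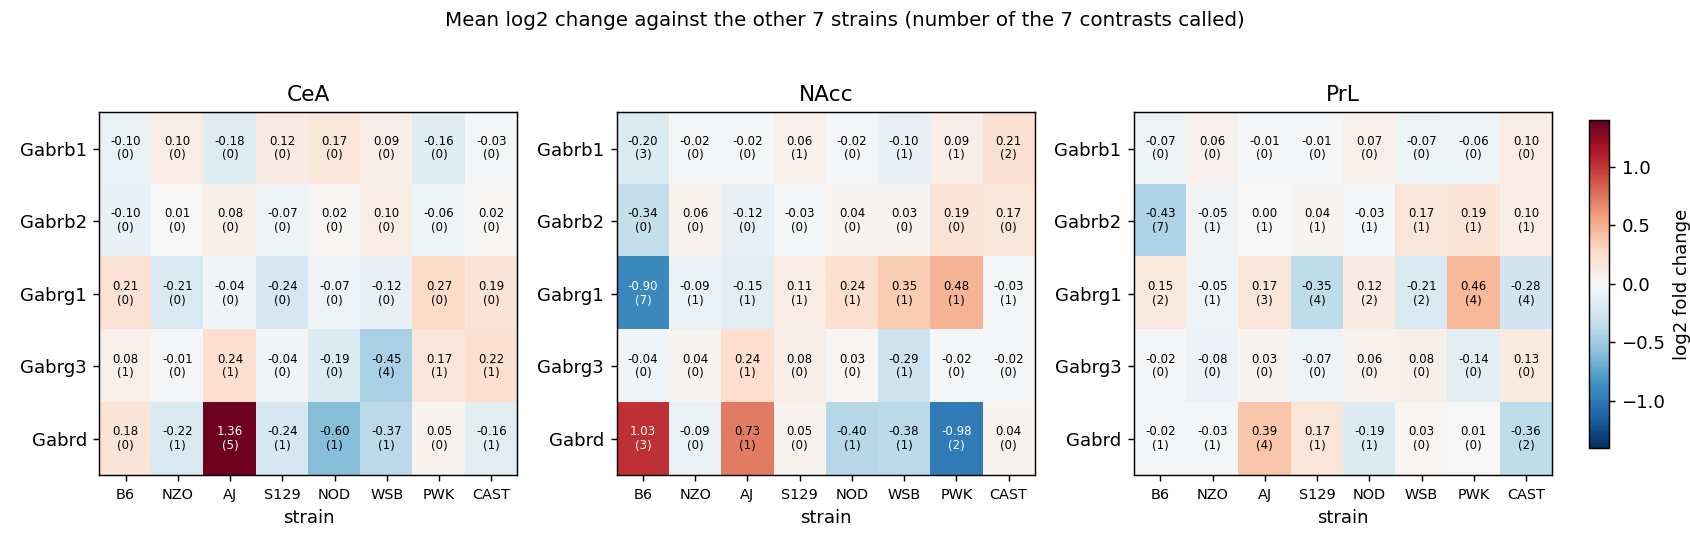
Mean log2 fold change of each strain (columns) against the 7 others for each gene (rows) in the CeA, NAcc and PrL, as colour and number, with the number of the 7 contrasts called in brackets. Only Gabrg1 in B6 in the NAcc (-0.90) and Gabrb2 in B6 in the PrL (-0.43) have 7 of 7.

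The high preference strains, B6 and PWK, were each compared with Low_Average within each region. For B6, 1 member was called in the PrL, 3 in the NAcc and 0 in the CeA, against 37.6%, 32.2% and 41% of all genes. In the NAcc, Gabrg1 was lower in B6 (-0.85 ± 0.19, adjusted p = 0.000457), Gabrb1 was slightly lower (-0.19 ± 0.07, adjusted p = 0.0269) and Gabrd was higher (0.91 ± 0.36, adjusted p = 0.0481). The difference of Gabrd was 0.09 with the striatal sum as a covariate (adjusted p = 0.50, range over alternatives 0.00153 to 0.985). Its call was also lost in a limma fit of the deposited log2 values (0.90, adjusted p = 0.0508) and at a mean CPM of at least 5 (0.0509). The same held with no tray term (0.0545), adjustment within each contrast (0.0530), 144 libraries or the astrocyte covariate, and without mouse 9, 17, 33 or 41. Gabrb1 lost its call with the striatal covariate (-0.15, adjusted p = 0.101, range 0.00566 to 0.234) and without mouse 33 or 41 (-0.14 and -0.15). It also lost it with no filter on low counts and with no tray term. In the PrL, Gabrb2 was lower (-0.41 ± 0.10, adjusted p = 0.000696), and lost its call with sample quality weights (-0.21, adjusted p = 0.0579, range over alternatives 0.00063 to 0.0579). For PWK, 1, 1 and 0 members were called, against 47.1%, 38.7% and 39.2% of all genes. Gabrd was lower in the NAcc (-0.85 ± 0.34, adjusted p = 0.0449), and its difference was 0.072 (adjusted p = 0.879, range over alternatives 0.000746 to 0.879) without the 11 libraries, which include the 2 PWK libraries of low striatal sum. Within trays 1, 2 and 3 it was -1.41, -1.28 and 0.02. Gabrg1 was higher in PWK in the PrL (0.50 ± 0.10, adjusted p = 5.78e-05), by 0.21, 0.71 and 0.61 within the trays. For the CeA, the counts of 0 in both strains were also 0 at an unadjusted p under 0.05 (limma).

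No member passed the test between sexes. By limma, 0 of 5 were called between females and males in each region, against 0.0947% of all genes in the PrL, 0.0812% in the NAcc and 0.135% in the CeA. At an unadjusted p under 0.05 there was 1, Gabrb1 in the NAcc (females lower by 0.11 on the log2 scale, -0.11 ± 0.04, adjusted p = 0.914). By edgeR and by DESeq2 the count was 0 in each region too.

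Of 43 other genes of GABA signalling, 38 were tested. Between B6 and Low_Average, 7 were higher and 7 lower in the CeA, 4 and 9 in the NAcc, and 3 and 10 in the PrL, while over all genes 3294 and 2775, 2554 and 2209, and 2698 and 2859 were. The 9 other receptor subunit genes tested had 0 higher in B6 in all 3 regions, and 1, 3 and 5 lower, with median log2 differences of -0.06, -0.56 and -0.14. Over all genes the medians were 0.01, 0.01 and 0.00. Between PrL and NAcc, all 4 genes of GABA synthesis and breakdown were lower in the PrL, with a median of -1.28, as were 3 of 4 transporters, and 4 of the 9 subunit genes were higher and 3 lower. Over all genes 5673 were higher and 6514 lower, which is the 82.4% given above.

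Among genes next to the members, calls in all 7 contrasts of a strain were as follows. Gabra2, which encodes the α2 subunit and lies beside Gabrg1, was lower in B6 than in all 7 strains in each region, at 69.7 ± 13.8 CPM in the PrL, 80.9 ± 9.69 in the NAcc and 86.8 ± 17.2 in the CeA, with mean log2 differences of -1.49, -1.57 and -1.91. Gabrg1 was called lower in B6 in the NAcc, and the test between regions is given above. In PWK in the PrL, Gabra2 was higher than in all 7 strains (mean 0.83), beside the higher Gabrg1 there. Gabra4, of the same cluster, had no strain with 7 of 7. In B6 it was lower in the PrL (mean -0.27, 6 of 7 called) and higher in the NAcc (mean 0.71, 2 of 7 called). Gabra5, which encodes the α5 subunit and lies beside Gabrg3, was higher in CAST in the PrL than in all 7 (mean 0.59), where Gabrg3 had no call.

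Of the rest of the GABA list, genes called in all 7 contrasts of a strain were as follows. In the CeA, Nlgn2 (a postsynaptic adhesion protein of inhibitory synapses) was lower in B6, and Aldh5a1 (an enzyme of GABA breakdown) was lower in NOD and higher in CAST. In the NAcc, Gabarapl2 was higher in WSB and Lhfpl4 (an auxiliary protein of GABA-A receptors) in CAST. In the PrL, Gphn (gephyrin, the scaffold of inhibitory synapses) was lower in NZO, Gabarap in AJ, Aldh5a1 in NOD and Hap1 in WSB, and Abat (GABA transaminase), Shisa7 (an auxiliary protein of GABA-A receptors) and Trak2 were higher in PWK.

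Over the 24 means of strain and region, genes among the 3 most like each member in pattern were Slc6a15, Pgrmc1 and Acvr2a for Gabrb1 (Pearson's r = 0.88, 0.86 and 0.85), Hrh2 and Lrfn5 for Gabrb2 (0.89 each), Inpp4b, Adamts5 and Chrm5 for Gabrg1 (0.98, 0.98 and 0.97), Gulp1, Foxo4 and Snx25 for Gabrg3 (0.93, 0.92 and 0.92) and Foxp1, Kcnh4 and Lzts3 for Gabrd (0.95, 0.93 and 0.92). With the region means subtracted, the closest were Cyb561 for Gabrb1 (r = 0.82), Lrfn5 for Gabrb2 (0.84), 6430628N08Rik for Gabrg1 (0.85), Cftr for Gabrg3 (0.80) and Bcr for Gabrd (0.94). Inpp4b for Gabrg1 and Lrfn5 for Gabrb2 were among the closest 3 on both scales. These r describe 24 points that share libraries, depth and punch, and carry no test. Among the members themselves, r over the 24 means was highest for Gabrg1 and Gabrg3 (0.59) and for Gabrg3 and Gabrd (0.58), and lowest for Gabrb1 and Gabrd (-0.68) and for Gabrb2 and Gabrg1 (-0.66). With the region means subtracted these were -0.05, 0.45, -0.58 and 0.27 in the same order.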

How the data were processed

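The authors prepared stranded poly(A) libraries, aligned the reads with STAR 2.7.3a (at most 3 mismatches per 100 bases) and counted them per gene with the Ensembl 105 annotation of GRCm39. The counts were deposited as whole numbers for 55414 genes and 240 columns, since trays 2 and 3 were sequenced again. The deposited log2 values are TMM-normalised log2 CPM of 14785 genes, which the authors kept after a filter on low, very high and unplaced genes, in 143 libraries (the first run of tray 2, the second of tray 3, and without the NAcc library of B6 mouse 1). When recomputed from counts, log2 CPM departed from the deposited values by at most 5e-06. The submitters' notes name limma 3.52.2 and edgeR 3.38.1.

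Here, counts of these genes and libraries were fitted with R 4.3.3, limma 3.58.1 and edgeR 4.0.16 (voom, prior count 0.5, strain, sex and tray as terms, 1 fit per region). Benjamini-Hochberg adjustment was over all genes and the contrasts of a kind together, at 0.05. Regions and the interaction were tested in 1 fit over the 143 libraries. Levels are CPM with TMM factors, on the linear scale, and differences are on the log2 scale. Exon lengths came from GENCODE M21 (GRCm38), joined by gene identifier. Scripts were tested on simulated data. DESeq2 1.42.0 was an alternative. As a measure of precision, the median SE of a member's strain contrast was 0.13 in the PrL, 0.16 in the CeA and 0.17 in the NAcc. Over all genes it was smaller, at 0.09, 0.11 and 0.12 in the same order. The median absolute log2 difference between strains was 0.13, 0.16 and 0.19 for the members. It was 0.15, 0.17 and 0.17 over all genes.

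Besides the members, the genes named were the 3 most like each member in pattern, genes of a GABA list that neighbour a member or have a call in all 7 contrasts of a strain, and marker lists. A gene that this rule names is not reported here. The members and lists were chosen with earlier results of these data known. The 3 regions of a mouse are paired by its number in the labels. The median correlation of residuals over genes was 0.01 (PrL and NAcc), 0.06 (CeA and NAcc) and 0.03 (CeA and PrL) for the same mouse.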

Additional observations from a re-analysis of the deposited data

Results flagged for a closer look

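Of the 120 groups of 5 or 6 mice, 8 held a library far from the others by Dixon's test, where chance gives about 1 in 20. Values are log2 CPM. For Gabrb1, the CeA library of WSB mouse 19 was low (7.63). For Gabrg1, the libraries of B6 mouse 33 were low in the CeA (5.48) and in the NAcc (4.90), and that of CAST mouse 28 was high in the CeA (6.85). For Gabrd, the CeA library of S129 mouse 46 was high (6.95), and in the NAcc the libraries of B6 mouse 25 (6.68) and AJ mouse 21 (6.23) were low and that of NOD mouse 47 was high (7.32).

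The effect of strain on Gabrg1 differed between regions (interaction test, adjusted p = 0.00182). The effect of B6 on Gabrg1 was higher in the PrL than in the NAcc by 1.04 and higher in the CeA than in the NAcc by 1.10 on the log2 scale, and the effect of WSB on Gabrg3 differed between CeA and PrL by -0.53.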

How the results depend on the processing

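Of 269 values of the main comparisons under alternatives, 227 kept their direction and their side of the threshold or stayed within 1.5 times. Of the others, 18 lost a call, 24 counts moved further and 0 reversed. Only the mean changes of Gabrg1 in B6 in the NAcc (21 alternatives) and of Gabrb2 in B6 in the PrL (22) could lose a call or reverse. All 18 losses were of these, and the remaining values are counts. Of 664 further values, 34 lost a call and 1 reversed. The marker covariates and the libraries left out for their striatal sum were chosen after seeing the data. Gabrg1 in B6 in the NAcc was not called in all 7 contrasts with no filter on low counts (mean -0.91), with 144 libraries (-0.83), with adjustment within each contrast (-0.90) and with the striatal covariate (-0.56), and was -0.99 to -0.74 with 1 B6 mouse left out. Gabrb2 in B6 in the PrL was not called in all 7 by edgeR (-0.39), by DESeq2 (-0.39), with no filter (-0.43), without the tray term (-0.43), with sample quality weights (-0.23), with adjustment within each contrast (-0.43) and with the striatal (-0.42), oligodendrocyte (-0.34) and astrocyte (-0.36) covariates, and was -0.53 to -0.34 with 1 mouse left out. Called contrasts of the members in the CeA were 5 with no filter, 25 with quality weights, 14 with the striatal and 4 with the oligodendrocyte covariate, and 4 without the 11 libraries, in place of 9. In the NAcc they were 47 with quality weights and 52 with the oligodendrocyte covariate in place of 16, and 9 to 15 with 1 B6 mouse left out (9 without mouse 33). Over all genes quality weights gave 40.1% of contrasts in the NAcc. By the test for any strain difference, 2 members in place of 1 were called in the CeA by edgeR, by DESeq2 and with quality weights, and 5 in place of 3 in the NAcc with quality weights. Of the calls against Low_Average, those of B6 were 2 in place of 4 without the tray term and with the striatal covariate. Smaller changes of this count stayed within 1.5 times and are not listed. The alternatives in which Gabrd of B6 lost its call in the NAcc are given above. Those of PWK were 1 in place of 2 by edgeR, by DESeq2, with no filter, with 144 libraries, with both runs summed, with the astrocyte covariate and without the 11 libraries, and 5 with the oligodendrocyte covariate. Gabrd in PWK in the NAcc was 0.072 in place of -0.85 without the 11 libraries. With mouse as a replicate block, 2 members in place of 1 were called by the interaction test, as with the striatal covariate, and the block changed no other call between regions (4, 3 and 5 members called). The cause of these changes was not tested. The members' lowest count in any library was 220, and the part of read depth in these changes was not tested.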

Other observations

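The NAcc library of B6 mouse 1, which the authors left out, stood apart. Gabrd was at 4.24 CPM and Gabrg1 at 58.1 CPM in it, and Gabrb1, Gabrb2 and Gabrg3 were at 155.3, 160.6 and 42.0 CPM. Its striatal marker sum was 280 CPM and its oligodendrocyte marker sum 23424 CPM, the latter above all 47 NAcc libraries used (2572 to 18581 CPM). With this library added, the difference in Gabrd between B6 and Low_Average in the NAcc was 0.01 on the log2 scale (adjusted p = 0.985, limma, with a range over alternatives of 0.00153 to 0.985).

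Markers of choroid plexus, the epithelium that makes cerebrospinal fluid, summed to 7.54 to 9328 CPM in the CeA, against 6.92 to 54.5 in the NAcc and 0.88 to 8.78 in the PrL.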
